A study of Mus musculus with 6 samples.

Results

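The 10 genes described here carry bone morphogenetic protein (BMP) signalling and its output in mouse embryonic stem cells (mESCs), and were taken by name from the 55385 genes of the count table. They are the ligand *Bmp4*, the receptor *Bmpr1a*, the receptor-activated Smads *Smad1* and *Smad5*, the inhibitory Smad *Smad6*, the extracellular antagonist *Grem1*, the target genes *Id1*, *Id2* and *Id3*, and *Dusp9*. RNA sequencing covered 6 libraries, 2 each of wild-type mESCs, of mESCs with a heterozygous *Wnt6* deletion and of mESCs with a homozygous *Wnt6* deletion, made with CRISPR-Cas9 to remove a Polycomb loop anchor. All were kept with leukemia inhibitory factor (LIF) on CD1 feeder cells, and the parental line was G4, an F1 hybrid of mouse strains. Edited cells were grown from individual clones, and the labels do not say how many clones stand behind the libraries of a genotype, so an effect of the deletion and a property of a clone cannot be told apart. The methods speak of biological triplicates, but the labels give 2 libraries per genotype and do not say that these came from separate cultures. The p-values thus set differences between genotypes against the spread between these libraries, which may not include the spread between cultures.

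BMPs are secreted ligands of the TGF-beta superfamily. They bind a complex of type I and type II receptors, the type I receptor phosphorylates Smad1 and Smad5, and these enter the nucleus with Smad4. The *Id* genes are classical direct targets. Their proteins have a helix-loop-helix domain but no DNA-binding region, and they hold back basic helix-loop-helix factors of differentiation. In mESCs grown with LIF, BMP from serum or feeder cells supports self-renewal through the Id proteins, and *Dusp9*, a phosphatase of ERK kinases, links BMP to lower ERK activity. *Smad6* is both a target and an inhibitor of the pathway.

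The windows just before the transcription starts of *Grem1* and *Bmp4* are shown because these members fell in the homozygous deletion, as described further on. RefSeq start sites on GRCm38.p6 were found for 8 of the 10 genes. In each window of 250 bases, 3 motifs were searched on both strands, the Smad palindrome GTCTAGAC, the GC-rich Smad site GGCGCC and a BMP response element, GGCGNC followed by 5 bases of any kind and GTCT. Of these, GGCGCC alone was found before the members, so no matches overlapped. The *Grem1* window lies at chr2:113758649-113758898 on the minus strand and the *Bmp4* window at chr14:46390670-46390919 on the minus strand. Both are written 5′ to 3′ with GGCGCC in capitals, and neither overlaps an annotated exon of its gene.
Grem1: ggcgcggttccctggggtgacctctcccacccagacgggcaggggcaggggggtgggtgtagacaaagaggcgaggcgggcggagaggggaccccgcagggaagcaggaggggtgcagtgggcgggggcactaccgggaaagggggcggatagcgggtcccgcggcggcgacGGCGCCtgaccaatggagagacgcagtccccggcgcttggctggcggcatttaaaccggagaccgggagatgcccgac
Bmp4: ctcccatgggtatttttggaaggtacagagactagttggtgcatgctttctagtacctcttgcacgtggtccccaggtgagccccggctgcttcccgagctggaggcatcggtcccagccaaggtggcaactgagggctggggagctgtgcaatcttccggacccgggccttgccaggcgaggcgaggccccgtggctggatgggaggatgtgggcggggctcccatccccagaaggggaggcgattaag
The *Grem1* window held GGCGCC, beginning 78 bases before the start, and the *Bmp4* window held none of the 3 motifs. GGCGCC also occurred before *Bmpr1a*, before *Id2* and before 1 of 3 start sites of *Smad5*. The *Id2* match, 231 bases before the start, is shown with its flanks because *Id2* had the highest fold change of the members in either deletion. It lies at chr12:25096306-25096335 on the minus strand, inside the annotated span of the gene.
Id2: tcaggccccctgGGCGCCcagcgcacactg
Across 32851 windows of the same length, 9.59% held GGCGCC, 0.167% held the palindrome and 0.192% held the BMP response element. These windows were not matched for G and C bases, which made up 60% to 78.8% of the member windows. All 250 bases of the *Id3* window lay in annotated exons of *Id3*. The windows of *Smad1*, *Smad6* and *Id3* held none of the 3, which says only that these letters are not in these windows.

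The libraries held between 23813912 and 28964706 counts, and 3 counts corresponded to between 0.102 and 0.131 CPM, counts relative to library totals adjusted for composition by TMM. All 10 genes passed the filter of at least 10 counts in at least 2 libraries, as did 16951 genes in all, and their lowest count was 58. The paper speaks of genes, in the plural, within the deletion that is named here after *Wnt6*. *Wnt6* was counted 11 and 13 times in the wild-type libraries, 6 and 4 times in the heterozygous ones and 0 times in either homozygous one. *Cdk5r2*, placed in the same region here and not by the labels, was counted 30 and 27, 16 and 17, and 1 and 2 times in that order. All 10 pluripotency markers were expressed in every library, and summed to 3364 and 3437 CPM for wild-type, 3118 and 3061 for heterozygous and 3576 and 3391 for homozygous cells. The 22 fibroblast markers, taken here as markers of feeder cells, summed to 3200 and 3090, 2357 and 2333, and 1762 and 1760 CPM in the same order. None was at 0 throughout. Much of these sums was *Fn1*, with means of 1670, 1318.5 and 1087 CPM in wild-type, heterozygous and homozygous libraries. In the heterozygous deletion 6 pluripotency markers were lower and none higher, and in the homozygous deletion 1 was higher and 1 lower. Of all tested genes, 2.91% were lower in the former, and 10.9% were higher and 10.5% lower in the latter. The 7 primitive endoderm markers summed to between 249 and 292 CPM. Most of this was *Lamb1*, with means of 263, 270 and 236 CPM in wild-type, heterozygous and homozygous libraries. *Gata4* had means of 1.96, 3.09 and 2.33 CPM in that order. Of 5 tested, 2 were lower in the homozygous deletion, *Lamb1* and *Dab2*, and 0 were called in the heterozygous deletion. In bulk RNA, fewer cells of a type and less RNA per cell cannot be told apart.

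*Levels in wild-type cells.* To compare genes, CPM was divided by the length in kilobases of all annotated exons of a gene. On this scale *Dusp9* was highest in the wild-type libraries, at 52.7 ± 0.269 CPM per kilobase (SD, n = 2). These levels are of whole libraries, which also held RNA of fibroblast markers. The *Id* genes followed at 21.1 ± 0.472 for *Id1*, 18.3 ± 0.501 for *Id3* and 13.0 ± 1.21 for *Id2* (SD, n = 2 each), with the receptor *Bmpr1a* between the latter, at 15.9 ± 0.0306. *Grem1* was at 10.9 ± 0.0679, *Smad5* at 8.0 ± 0.0282 and *Bmp4* at 7.25 ± 0.222 CPM per kilobase (SD, n = 2 each). *Smad1* was lower, at 3.63 ± 0.192, and *Smad6* lowest, at 0.988 ± 0.0897 (SD, n = 2 each). Of the receptor-activated Smads, *Smad5* was thus the more abundant transcript, and no neighbours in this order overlapped between their replicates.

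By mean, heterozygous libraries kept the wild-type order, and homozygous libraries did not. In heterozygous libraries *Id3* ranged from 16.6 to 21.1 CPM per kilobase. This range overlapped *Bmpr1a*, at 17.2 and 18.2, and *Id2*, at 16.2 and 16.9, while *Grem1* overlapped *Smad5*. In homozygous libraries *Id2* came next after *Dusp9* and *Id1*, with a mean of 17.3 CPM per kilobase, but it overlapped *Bmpr1a*, which in turn overlapped *Id3*. *Grem1* there lay below *Smad5*, at 5.94 ± 0.139 against 7.25 ± 0.168 CPM per kilobase (SD, n = 2 each), where in wild-type cells it lay above it.

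**Figure D1:**
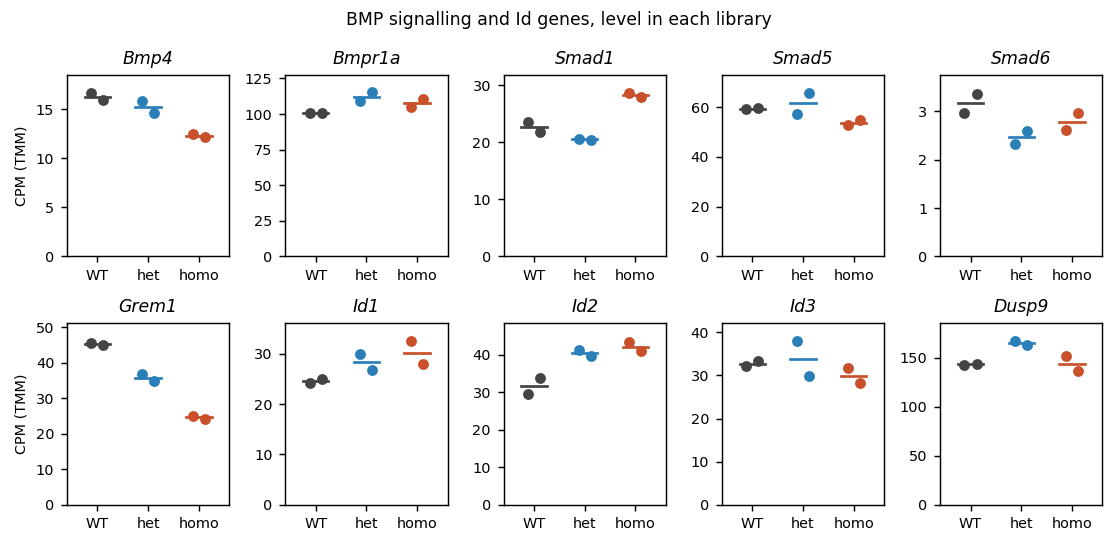
Level of each of the 10 genes in CPM with TMM scaling (vertical axis, from 0) in the wild-type (WT), heterozygous (het) and homozygous (homo) deletion libraries; points are libraries and bars are means of 2. *Grem1* steps down from 45.3 to 35.8 and 24.7 CPM, while *Id2* is higher in both deletions than in wild-type.

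*Heterozygous deletion against wild-type.* *Id2* and *Dusp9* rose and *Grem1* fell in the libraries with the heterozygous *Wnt6* deletion. These are bulk RNA in which the fibroblast markers also summed lower, as given above, so no change was assigned to the mESCs alone. The remaining 7 members did not pass the test, the quasi-likelihood test of edgeR, with p-values adjusted by Benjamini-Hochberg over all 16951 genes and a threshold of 0.05. Of all tested genes 5.14% passed in this comparison, 2.23% higher and 2.91% lower. No member passed the fold threshold used in the study, an absolute log2 fold change above 1, which 0.165% of genes did. The median log2 fold change of the members was 0.050, against 3.68e-06 over all tested genes.

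*Homozygous deletion against wild-type.* In the homozygous deletion *Id1*, *Id2* and *Smad1* rose, and *Bmp4* and *Grem1* fell. The other 5 members did not pass the test. Of all tested genes 21.4% passed, 10.9% higher and 10.5% lower, and 2.14% also passed the fold threshold, which again no member did. With library totals in place of TMM, 31.9% of the genes called in this comparison were higher, against 50.8% with TMM, and the calls of these 5 members remained. The median log2 fold change was -0.064 over the members and -0.0061 over all tested genes.

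*Homozygous against heterozygous deletion.* Set directly against each other, *Smad1* was higher and *Bmp4*, *Smad5*, *Grem1* and *Dusp9* were lower in the homozygous deletion. No member passed the fold threshold. Of all tested genes 25.8% passed in this comparison, 12.9% in each direction, and 1.39% also passed the fold threshold. With library totals 29.4% of the calls were higher, against 50.1% with TMM. The deletions share the wild-type libraries as their control, so the direct contrast is given as the test of their difference.

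**Figure D2:**
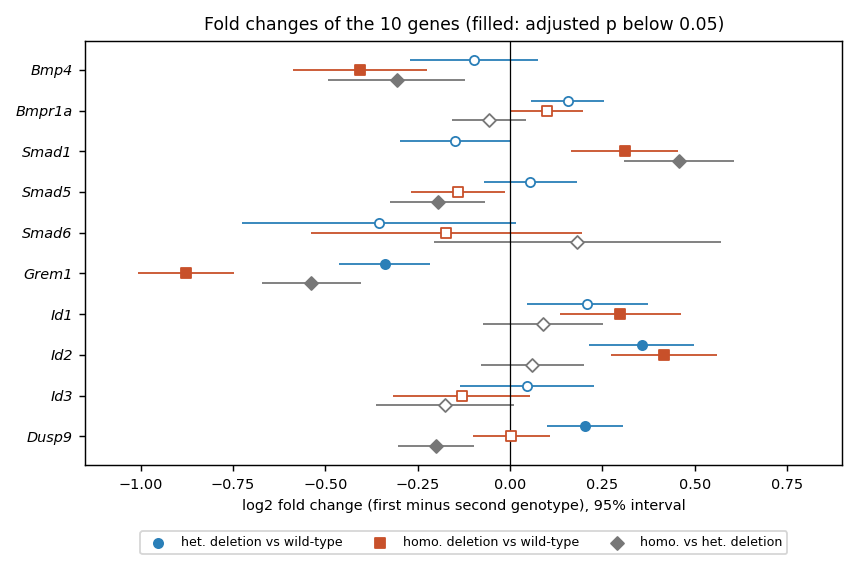
Log2 fold change (horizontal axis) of each member in 3 comparisons, with its 95% interval; filled symbols passed the adjusted p of 0.05 and open symbols did not. *Grem1* lies lowest, at -0.88 in the homozygous deletion, and *Id2* highest of the comparisons with wild-type, at 0.42.

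*Ligand.* *Bmp4*, chromosome 14 of GRCm38, 46383520 to 46390669 on the minus strand, encodes the BMP best known from mESC culture. It measured 16.6 and 15.9 CPM in the wild-type libraries, 15.9 and 14.6 in the heterozygous and 12.5 and 12.1 in the homozygous ones. Both homozygous libraries lay below all 4 others, while the heterozygous libraries began just under the lower wild-type value. In the homozygous deletion *Bmp4* fell by a log2 value of 0.41 (with its standard error, SE, of 0.0867, edgeR adjusted p = 0.00187), to 0.755 of the wild-type level. Its log2 fold change in the heterozygous deletion was -0.098, with a 95% interval from -0.27 to 0.076 (edgeR adjusted p = 0.628). Between the deletions it was lower in the homozygous (log2 fold change -0.31, SE 0.0883, edgeR adjusted p = 0.0144). That last call was lost with DESeq2 (adjusted p = 0.10), without heterozygous deletion replicate 1 (edgeR adjusted p = 0.127) and without homozygous deletion replicate 2 (0.0564).

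*Receptor.* *Bmpr1a*, chromosome 14, 34410734 to 34503341 on the minus strand, encodes the type I receptor for BMP4 in mESCs. It measured 101 and 101 CPM in the wild-type libraries, 109 and 115 in the heterozygous and 105 and 111 in the homozygous ones. Every deletion library was above both wild-type libraries, by a small margin. Neither comparison passed the test, with log2 fold changes of 0.16 (95% interval 0.057 to 0.26, edgeR adjusted p = 0.0662) and 0.099 (-0.0012 to 0.20, edgeR adjusted p = 0.159). The heterozygous value passed when only the wild-type and heterozygous libraries were fitted (edgeR adjusted p = 0.0237) and when either homozygous library was left out, homozygous deletion replicate 1 (0.0251) or homozygous deletion replicate 2 (0.0247).

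*Receptor-activated Smads.* *Smad1*, chromosome 8, 79338395 to 79399518 on the minus strand, measured 23.6 and 21.9 CPM in the wild-type libraries, 20.6 and 20.5 in the heterozygous and 28.6 and 27.9 in the homozygous ones. The 3 genotypes did not overlap. In the homozygous deletion it rose by 0.31 in log2 (SE 0.0696, edgeR adjusted p = 0.00279), 1.24-fold, and against the heterozygous deletion by 0.46 (SE 0.0712, edgeR adjusted p = 6.98e-05). In the heterozygous deletion its log2 fold change was -0.15 (95% interval -0.30 to 0.0025, edgeR adjusted p = 0.317).

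*Smad1* lay near the median of its chromosome, which was itself away from 0 in both deletions. The 890 tested genes of the chromosome were centred on a median of 0.39 in log2 fold change in homozygous cells, against -0.018 on the other chromosomes, and *Smad1* lay 0.083 below that median, at the 35.6 percentile of the chromosome. In the heterozygous deletion the chromosome had a median of -0.12, with *Smad1* 0.024 below it. *Zfp423*, a zinc finger partner of Smads that lies on the same chromosome, rose by 0.48 in the homozygous deletion (SE 0.0566, edgeR adjusted p = 2.75e-06), 0.085 above the median of the chromosome. The part of the chromosome-wide shift in these rises was not tested.

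**Figure D3:**
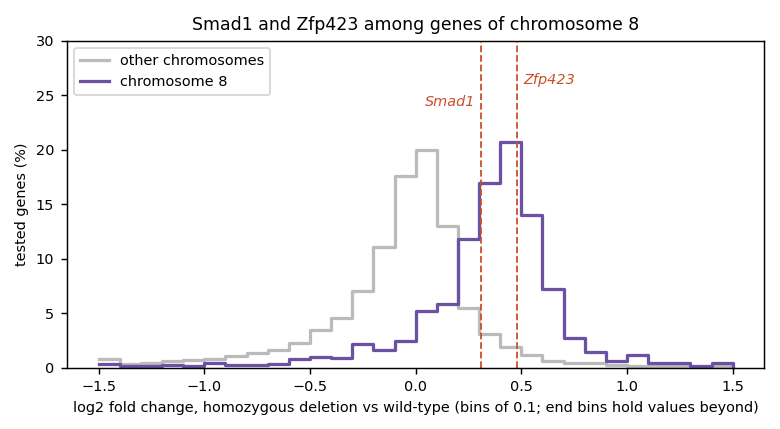
Share of tested genes (vertical axis, percent) by log2 fold change in the homozygous deletion against wild-type (horizontal axis, bins of 0.1, end bins hold values beyond), for 890 genes of chromosome 8 and for the other chromosomes; dashed lines mark *Smad1* and *Zfp423*. Both lines fall within the body of the chromosome 8 distribution, whose median is 0.39.

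*Smad5*, chromosome 13, 56703010 to 56742377 on the plus strand, measured 59.2 and 59.5 CPM in the wild-type libraries, 57.4 and 65.8 in the heterozygous and 52.9 and 54.7 in the homozygous ones. The heterozygous libraries lay on both sides of the wild-type libraries, and the homozygous libraries below all others. Its log2 fold change was 0.055 in heterozygous (95% interval -0.071 to 0.18, edgeR adjusted p = 0.734) and -0.14 in homozygous deletion cells (-0.27 to -0.014, edgeR adjusted p = 0.111). With library totals the homozygous value passed, at -0.20 (edgeR adjusted p = 0.0300). Between the deletions *Smad5* was lower in the homozygous by a log2 fold change of -0.20 (SE 0.0613, edgeR adjusted p = 0.0235). That call was lost with DESeq2 (adjusted p = 0.0928), without heterozygous deletion replicate 2 (edgeR adjusted p = 0.373), where the log2 fold change was -0.093, and without homozygous deletion replicate 1 (0.0773).

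The proportion of the 2 Smad transcripts does not depend on how libraries are scaled. Per *Smad5* count, wild-type libraries held 0.399 and 0.368 *Smad1* counts, heterozygous libraries 0.359 and 0.311 and homozygous libraries 0.541 and 0.511. The homozygous libraries were above the other 4. No test was run on this ratio.

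*Inhibitory Smad.* *Smad6*, chromosome 9, 63953076 to 64022059 on the minus strand, rested on 58 to 87 counts a library. It measured 2.96 and 3.37 CPM in the wild-type libraries, 2.33 and 2.59 in the heterozygous and 2.62 and 2.96 in the homozygous ones. Wild-type libraries were the highest, with the homozygous range ending just under them. The log2 fold change was -0.35 in heterozygous (95% interval -0.73 to 0.017, edgeR adjusted p = 0.337) and -0.17 in homozygous deletion cells (-0.54 to 0.19, edgeR adjusted p = 0.549). *Smad7*, the related inhibitor, rested on over 1100 counts in each library and fell in the homozygous deletion by 0.22 (SE 0.0541, edgeR adjusted p = 0.00636), a call lost without wild-type replicate 1 (0.0948).

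*Extracellular antagonist.* *Grem1*, chromosome 2, 113746164 to 113758646 on the minus strand, encodes Gremlin, a secreted protein that binds BMP2 and BMP4 and keeps them from their receptors. It had the largest fold change of the members in the homozygous deletion, and its 3 genotypes were far apart. *Grem1* measured 45.5 and 45.1 CPM in the wild-type libraries, 36.7 and 34.9 in the heterozygous and 25.1 and 24.3 in the homozygous ones. The log2 fold change was -0.34 in heterozygous (SE 0.0590, edgeR adjusted p = 0.00117) and -0.88 in homozygous deletion cells (SE 0.0623, edgeR adjusted p = 3.32e-09), where 0.544 of the wild-type level remained. Between the deletions it was -0.54 (SE 0.0642, edgeR adjusted p = 2.81e-06). These 3 calls held in every alternative run except the fold threshold of 1, which they did not pass.

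Fibroblast markers moved in the same direction. Of 22 listed, 21 were tested. In the heterozygous deletion 16 were lower and none higher, where 2.91% of all tested genes were lower, and the median log2 fold change was -0.47. In the homozygous deletion 18 were lower and none higher, where 10.5% of all tested genes were lower. The median there was -1.07, with a range from -1.40 to 0.040. *Col1a1*, a collagen of fibroblasts, was at -0.57 and -1.27 in the same order, and *Col1a2* at -0.60 and -1.28. *Fn1*, the marker of highest level, was at -0.34 and -0.62. The *Grem1* values are smaller than these medians in both deletions. The part of feeder cell RNA in the fall of *Grem1* was not tested, nor was its part in that of *Bmp4*.

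The number of antagonist counts per ligand count was lower in the deletions. Per *Bmp4* count, wild-type libraries held 2.73 and 2.83 *Grem1* counts, heterozygous libraries 2.31 and 2.39 and homozygous libraries 2.01 and 2.0. The 3 genotypes did not overlap in this ratio, on which no test was run.

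*Targets.* Of the *Id* genes, *Id2* rose in both deletions, *Id1* passed in the homozygous deletion and *Id3* in neither. *Id2*, chromosome 12, 25093799 to 25097140 on the minus strand, measured 29.5 and 33.7 CPM in the wild-type libraries, 41.3 and 39.5 in the heterozygous and 43.4 and 40.9 in the homozygous ones. All 4 deletion libraries were above both wild-type libraries, and the deletions overlapped each other. It rose by a log2 value of 0.36 in the heterozygous (SE 0.0682, edgeR adjusted p = 0.00280) and by 0.42 in the homozygous deletion (SE 0.0683, edgeR adjusted p = 0.000141), 1.28-fold and 1.34-fold. Without wild-type replicate 1, the lower of the wild-type libraries, the heterozygous rise was 0.26 and did not pass (edgeR adjusted p = 0.121). Between the deletions the log2 fold change was 0.060, with a 95% interval from -0.080 to 0.20.

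*Id1*, chromosome 2, 152736251 to 152737410 on the plus strand, is the member most often used as a readout of BMP signalling. It measured 24.1 and 24.9 CPM in the wild-type libraries, 29.9 and 26.8 in the heterozygous and 32.4 and 28.0 in the homozygous ones. Wild-type libraries were the lowest, but the replicates of each deletion were further apart than those of wild-type. In the homozygous deletion it rose by 0.30 (SE 0.0784, edgeR adjusted p = 0.00925), 1.23-fold. The call was lost without wild-type replicate 1 (log2 fold change 0.27, edgeR adjusted p = 0.0926) and without homozygous deletion replicate 1 (0.19, edgeR adjusted p = 0.128). In the heterozygous deletion the log2 fold change was 0.21 (95% interval 0.045 to 0.37, edgeR adjusted p = 0.156), and between the deletions it was 0.089 (-0.073 to 0.25).

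*Id3*, chromosome 4, 136143497 to 136145755 on the plus strand, passed no test. It measured 32.1 and 33.4 CPM in the wild-type libraries, 37.9 and 29.8 in the heterozygous and 31.7 and 28.2 in the homozygous ones. The heterozygous replicates enclosed the wild-type values. The log2 fold change was 0.046 in heterozygous (95% interval -0.14 to 0.23, edgeR adjusted p = 0.867) and -0.13 in homozygous deletion cells (-0.32 to 0.055, edgeR adjusted p = 0.337). Between the deletions it was -0.18 (edgeR adjusted p = 0.158), which became -0.34 (0.00702) without heterozygous deletion replicate 2, -0.26 (0.0459) without homozygous deletion replicate 1 and 0.0034 (0.988) without heterozygous deletion replicate 1.

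Counted within each library, *Id2* and *Id1* were higher relative to *Id3* in every deletion library than in wild-type. Per *Id3* count, wild-type libraries held 0.919 and 1.01 *Id2* counts, heterozygous libraries 1.09 and 1.33 and homozygous libraries 1.37 and 1.45. For *Id1* the ratios were 0.752 and 0.746, 0.790 and 0.90, and 1.02 and 0.993. Neither ratio overlapped between genotypes, and no test was run on them. No rule was set for the choice of pairs, and how often other gene pairs separate in this way was not computed. The *Id2* counts per *Id1* count ran from 1.223 to 1.352 in wild-type, from 1.38 to 1.472 in heterozygous and from 1.34 to 1.46 in homozygous libraries, so the homozygous range overlapped both others and the heterozygous range lay above that of wild-type. *Id4*, the remaining family member, had 37 to 73 counts a library and log2 fold changes of 0.20 in heterozygous and -0.46 in homozygous deletion cells, neither past the test (edgeR adjusted p = 0.692 and 0.138).

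**Figure D4:**
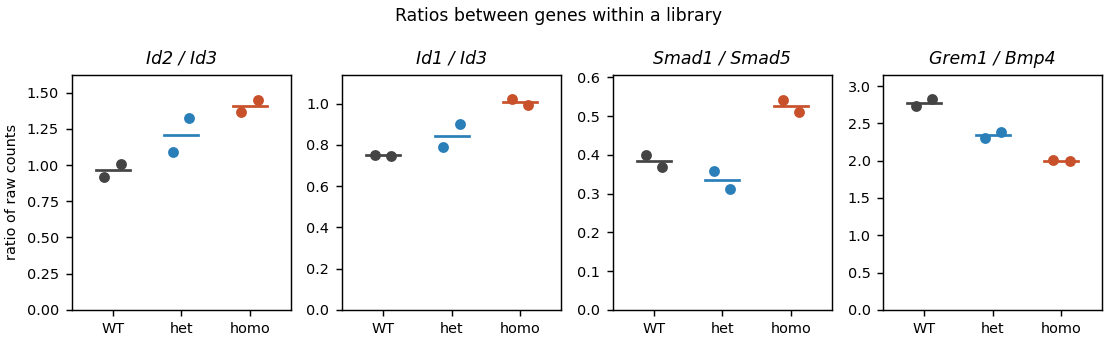
Ratio of raw counts of pairs of genes within a library (vertical axes, from 0) for wild-type (WT), heterozygous (het) and homozygous (homo) deletion libraries; points are libraries and bars are means of 2. *Id2* per *Id3* rises from a mean of 0.964 to 1.41 and *Grem1* per *Bmp4* falls from 2.78 to 2.0. The ratios *Smad6* per *Smad5* and *Id2* per *Id1*, which overlapped between genotypes, are not drawn.

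*Dusp9*, chromosome X, 73639419 to 73643514 on the plus strand, passed the test against wild-type in the heterozygous deletion and not in the homozygous. It measured 143 and 144 CPM in the wild-type libraries, 167 and 163 in the heterozygous and 152 and 136 in the homozygous ones. Heterozygous libraries were the highest, and the homozygous libraries enclosed the wild-type values. *Dusp9* rose by 0.20 in the heterozygous deletion (SE 0.0492, edgeR adjusted p = 0.0173), 1.15-fold. This call was lost without either wild-type or either heterozygous library, with edgeR adjusted p of 0.163 and 0.142 without wild-type replicates 1 and 2 and of 0.119 and 0.0793 without heterozygous deletion replicates 1 and 2. In the homozygous deletion the log2 fold change was 0.0032 (95% interval -0.10 to 0.11, edgeR adjusted p = 0.975). The direct contrast was -0.20 (SE 0.0495, edgeR adjusted p = 0.00531), a call lost without homozygous deletion replicate 2 (-0.12, edgeR adjusted p = 0.0825). In the same heterozygous libraries 6 of 10 pluripotency markers were lower and none higher than in wild-type, against 2.91% of all tested genes lower. The median log2 fold change of these 10 markers was -0.19, and their part in the values of *Dusp9* was not tested.

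The genes whose level over the 6 libraries was most like that of *Id1* were *Lsr*, *Bex1* and *Tent4a*, with Pearson correlations of 0.993, 0.993 and 0.974 on log2 CPM among 13897 genes at 1 CPM or more, 16 of which exceeded 0.95. For *Bmp4* they were *Sema7a*, *Shc2* and *1110008P14Rik*, at 0.998, 0.995 and 0.993, with 326 genes above 0.95. These correlations describe 6 libraries in 3 genotypes, which differed in depth and in the sums of fibroblast markers.

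*The wider pathway.* A list of 55 other BMP pathway genes, written with earlier results of these data known, was read beside the members. Of 44 that were tested, 2 rose and 2 fell with the heterozygous deletion, against 5.14% of all genes in either direction. Homozygous libraries had 3 higher and 12 lower, against 21.4% of all genes, with 4 past the fold threshold. Between the deletions 5 were higher and 16 lower, against 25.8% of all genes in either direction. The medians over the 44 were -0.027 in heterozygous and -0.10 in homozygous deletion cells.

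Antagonists made up 6 of the 12 lower genes in the homozygous deletion, out of 10 tested, where 10.5% of all tested genes were lower. The median log2 fold change of the antagonists was -0.88. *Fst*, encoding follistatin, went from 15.5 and 16.5 CPM (wild-type) to 8.82 and 7.15 (homozygous), a log2 fold change of -1.0 (SE 0.102, edgeR adjusted p = 4.19e-07). The BMP-binding proteins *Bmper*, *Chrd* (chordin) and *Nbl1* were at -1.10, -0.97 and -0.79 in the homozygous deletion, all past the test, on 35 to 44, 39 to 50 and 265 to 279 counts in the homozygous libraries. *Fstl1*, a follistatin-like secreted protein, was at -0.18 in heterozygous (edgeR adjusted p = 0.0224) and -0.47 in homozygous deletion cells (1.90e-07). Its heterozygous call was lost in 3 of 13 alternatives. *Sost*, *Sostdc1* and *Cer1* were under the filter, and *Nog* (noggin), on 15 to 28 counts, did not pass in either deletion. The 6 antagonists fell together with the fibroblast markers described above, whose median in the homozygous deletion was -1.07, and the part of feeder cells in their fall was not tested.

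Among receptors, *Acvrl1* (ALK1) and *Acvr1* (ALK2), type I receptors of the family, were lower in the homozygous deletion, with log2 fold changes of -1.01 (edgeR adjusted p = 0.000338) and -0.56 (0.000132). *Acvrl1* rested on 42 and 51 homozygous counts against 120 and 91 in wild-type. The type II receptor *Bmpr2* was at 0.11 and 0.025 in the heterozygous and homozygous deletions and passed in neither. *Eng* (endoglin), a co-receptor, was at 0.29 in the heterozygous deletion (edgeR adjusted p = 0.0491), a call lost in 6 of 13 alternatives.

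Of 8 ligands tested, *Bmp8b* rose in the heterozygous deletion, from 9.60 and 8.77 CPM to 14.4 and 16.2, a log2 fold change of 0.73 (SE 0.0980, edgeR adjusted p = 7.01e-05), and it was at 0.20 in the homozygous deletion (0.189). Its direct difference between the deletions was -0.53 (SE 0.0978, edgeR adjusted p = 0.000421). *Gdf3*, a TGF-beta family ligand of pluripotent cells, measured 112 and 112 CPM in the wild-type libraries, 100.007 and 104 in the heterozygous and 145 and 131 in the homozygous ones, and rose in the homozygous deletion by 0.30 (SE 0.0504, edgeR adjusted p = 0.000172). The 7 other ligands were under the filter.

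Of the 8 genes for other Smads and their regulators, *Smad4*, the common partner of Smad1 and Smad5, rose in the homozygous deletion by 0.21 (SE 0.0480, edgeR adjusted p = 0.00306). *Smurf1* and *Smurf2*, ubiquitin ligases that act on Smads and receptors, were at -0.23 (edgeR adjusted p = 0.00615) and -0.19 (0.0163). The *Smurf1* call was lost without wild-type replicate 1 (0.0777). *Skil*, a repressor of Smad transcription, was at 0.094 in heterozygous and -0.094 in homozygous deletion cells, and differed between the deletions by -0.19 (edgeR adjusted p = 0.00188). Among 9 further tested target genes 1 passed in the homozygous deletion, where 21.4% of all tested genes did. This was *Runx2*, a regulator of bone and mesenchyme, at -1.0 (SE 0.188, edgeR adjusted p = 0.000576). Between the deletions 3 of the 9 passed, against 25.8% of all tested genes. *Tbx3*, a T-box factor of mESCs, was at -0.039 and -0.034 and passed in neither deletion.

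**Figure D5:**
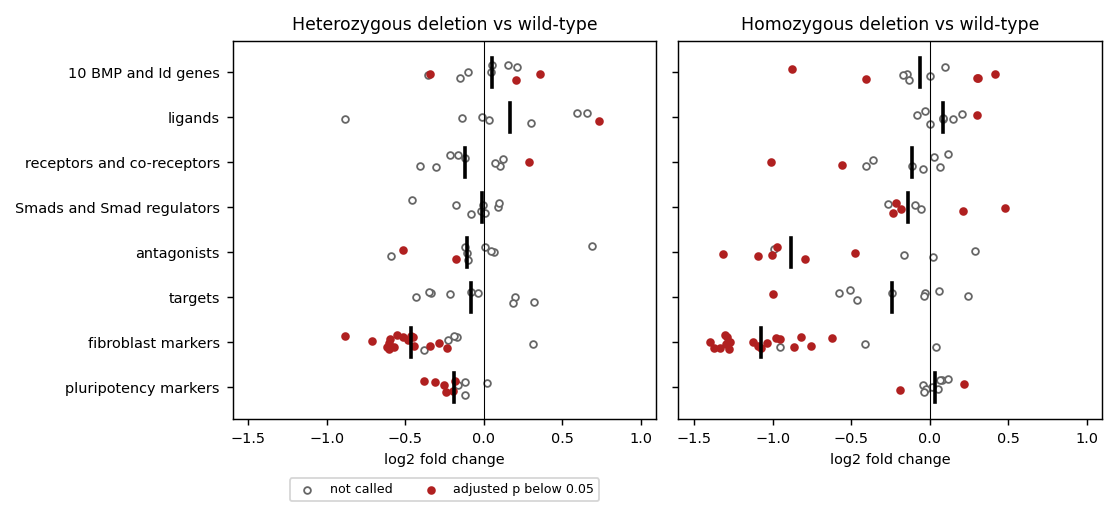
Log2 fold change against wild-type (horizontal axis) of the 10 members, of 5 groups of other BMP pathway genes and of fibroblast and pluripotency markers, in the heterozygous (left) and homozygous (right) deletion; each point is a gene, filled points passed the adjusted p of 0.05 and black bars are medians. In the homozygous deletion the antagonists, with a median of -0.88, lie beside the fibroblast markers, with a median of -1.07.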

How the data were processed

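Per the labels, the submitters' processing notes name Trimmomatic 0.39, STAR 2.6.1d, SAMtools 1.9, featureCounts 1.6.4, DESeq2 1.22.2 and the builds mm10 and GRCm38, with no roles, and stranded mRNA libraries. The deposited values are raw read counts per gene, made by the authors, and whether counting used strand is not given in the sources used here. *Bmp4* and *Bmpr1a* share exonic bases with antisense genes that held 11 and 3 counts in all.

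A gene entered at 10 counts or more in 2 or more libraries (16951 of 55385), and these were fitted with TMM in a joint quasi-likelihood model of 6 libraries in edgeR 4.0.16 (R 4.3.3), first tested on simulated data. Standard errors are the log2 fold change over the square root of F. Lengths and positions came from GENCODE on GRCm38, which held 55144 of the identifiers, and promoters from RefSeq GRCm38.p6. Replicates differed by more than sampling noise (chi-square per degree of freedom 2.34 to 3.65).

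The methods state biological triplicates, while the labels give 2 libraries per genotype, and the 6 labelled libraries were used. The members and lists were chosen with earlier results of these data known. All members are named, with the 15 called pathway genes of largest change and the highest mean CPM of each group. The values of 1 gene that this rule names are not reported here. *Smad4*, *Smurf2*, *Id4*, *Nog*, *Twsg1*, *Bambi*, *Chrdl1* and the antagonists under the filter were named after their values were seen. Alternatives were the Wald test of DESeq2 1.42.0, size factors from it, library totals, 2 other filters, only the libraries compared, a replicate block, a fold threshold and each replicate left out. No columns were left unmapped. Figures were made with matplotlib 3.10.9 in Python 3.11.15.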

Additional observations from a re-analysis of the deposited data

How the results depend on the processing

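Under the fold threshold of 1, 0 members passed in any comparison, and 0, 4 and 1 genes of the pathway list passed in the heterozygous, homozygous and direct comparisons. With each replicate left out, members called ran from 1 to 4 (heterozygous; 1 without wild-type replicate 1), from 4 to 5 (homozygous) and from 3 to 5 (between deletions; 3 without homozygous deletion replicate 2), and pathway genes from 2 to 6 (2 without wild-type replicate 2 and without heterozygous deletion replicate 1), from 12 to 16 and from 13 to 20 (13 without heterozygous deletion replicate 1). DESeq2 called 3 members between the deletions, and fitting only the libraries compared called 7 pathway genes in the heterozygous deletion. Of 806 alternative values for single genes, 752 kept their direction and side of the threshold, 37 lost their call and 6 gained one. The direction reversed in 11, none of them a called value. *Dusp9* in the homozygous deletion was -0.054 with library totals, -0.0042 over genes with any count, -0.0014 with 10 counts in all libraries and -0.0014 with only the libraries compared, and *Id2* between the deletions was -0.0069 with library totals. With replicates left out, *Dusp9* there ran from -0.075 to 0.080, *Smad5* in the heterozygous deletion from -0.049 to 0.15, *Id3* from -0.13 to 0.21, and between the deletions *Id1* from -0.018 to 0.20 and *Id3* from -0.34 to 0.0034. The cause was not tested.

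Over all genes DESeq2 called 476, 2243 and 2770 genes in the heterozygous, homozygous and direct comparisons, against 871, 3633 and 4371 with edgeR, and with replicates left out the counts ran from 351 to 1302, from 2115 to 3604 and from 2903 to 4339. Same-numbered replicates did not deviate together (correlations of 0.026, -0.12 and 0.011 across genes), so the numbers were not used to pair libraries. With the replicate block 3, 5 and 5 members and 4, 15 and 20 pathway genes were called, against 4, 15 and 21 of the latter without it. Intervals and floors cover these libraries only, and of the 10 members *Smad6* rested on the fewest counts (58 to 87 a library).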
